A study of Mus musculus with 2 samples.

Results

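The genes described here encode the Wnt ligands, their frizzled receptors and Lrp5/Lrp6 co-receptors, and the secreted proteins that hold Wnt signalling back. Members were the protein-coding genes whose symbol is Wnt, Fzd, Sfrp or Dkk followed by a number, together with Frzb, Wif1, Lrp5 and Lrp6. The rule found 41 genes, namely 19 ligands, 10 frizzled receptors, 2 co-receptors and 10 secreted inhibitors, among 22015 nuclear protein-coding genes and 55536 genes in all. It used no measured value. The samples were gastrocnemius muscle, the large muscle of the calf, from 2 male B6CASTF1/J mice aged 36 days, first-generation hybrids of a C57BL/6 and a CAST strain. The labels name no treatment and no engineered allele, which leaves a single group (n = 2) and nothing to contrast it with. The animals are numbered as biological replicates 1 and 2 with separate biosample entries but share a donor entry, so part of the spread between them may be technical.

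Wnt proteins are lipid-modified growth factors that act over short distances. At a receiving cell a Wnt binds a frizzled receptor together with Lrp5 or Lrp6, which stops the destruction of beta-catenin and lets it activate genes with TCF/LEF factors. Other Wnts signal through frizzled or Ryk and Ror receptors without beta-catenin, by routes that set cell polarity. Secreted frizzled-related proteins and Wif1 bind Wnts outside the cell, whereas Dickkopf proteins bind Lrp5 and Lrp6. In skeletal muscle the pathway is known for its part in muscle stem cell division, in fibre formation and at the neuromuscular junction.

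Levels are given in TPM, a length-scaled share of all transcripts in a library that can be compared between genes. Replicate 1 held 36952277 expected counts and replicate 2 held 38754338, of which the 41 genes took 11659 and 11293. Acta1, the skeletal muscle actin, stood at 22669 and 25019 TPM, and all 8 muscle fibre markers were detected in both. The libraries were not alike in their other tissues. Schwann cell markers summed to 373.96 TPM in replicate 1 and 83.25 TPM in replicate 2, fibroblast markers to 1824.09 and 960.66 TPM, and adipocyte markers to 109.1 and 137.66 TPM. In bulk RNA, fewer cells of a type and less RNA per cell cannot be told apart.

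Of the 41 genes, 17 reached 1 TPM in both animals, which is 41.5% of them beside 45.6% of all nuclear protein-coding genes. A further pair did so in 1 animal, Fzd8 in replicate 1 and Dkk2 in replicate 2. In the gene tables reads were present in both animals for 31 genes, in 1 animal for 4 and in neither for 6. The most abundant member was Lrp6, whose mean lay above that of 83.2% of the nuclear protein-coding genes with a TPM above 0. Wnt9a, the leading ligand, lay above 53.8% of them.

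**Figure D1:**
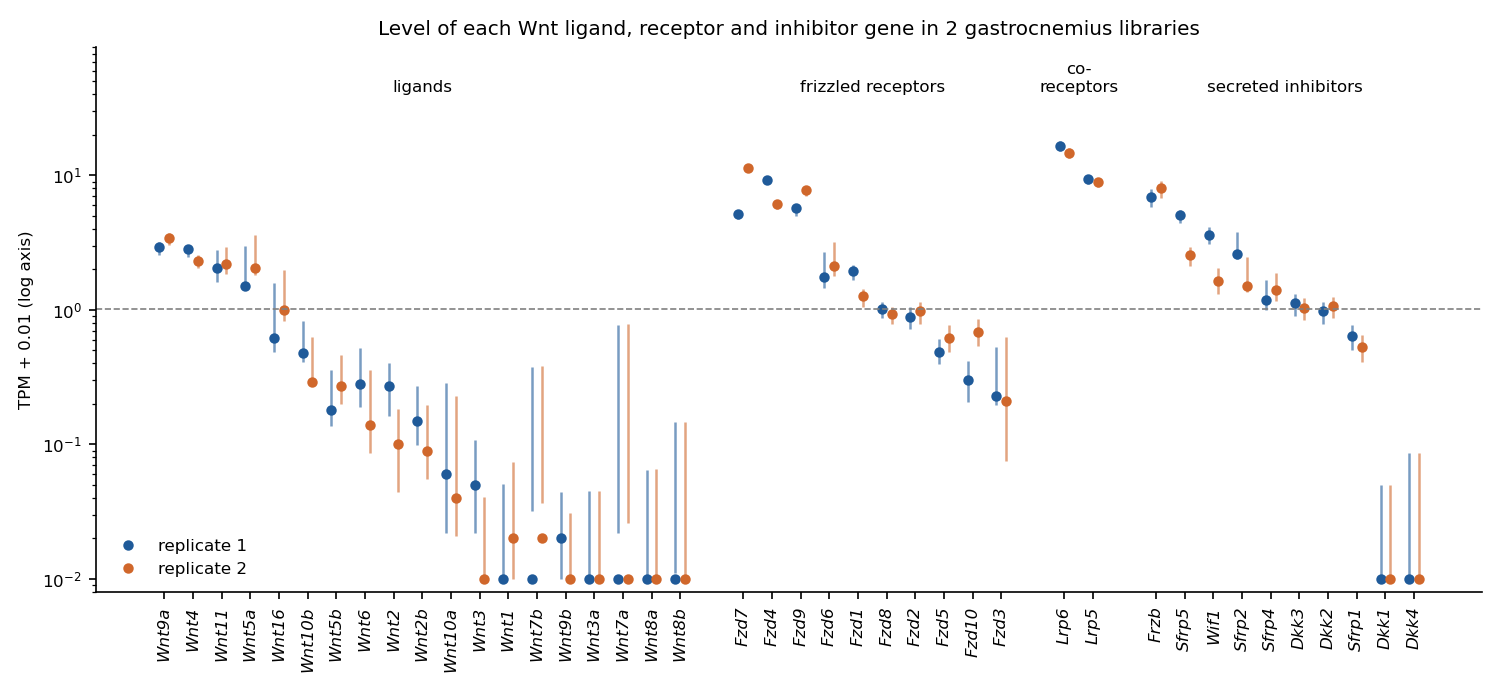
TPM of each of the 41 genes on a log axis after adding 0.01, grouped by class, with a point for each animal, a line for the deposited credibility interval and a dashed line at 1 TPM. The receptors and co-receptors lead at up to 16.49 TPM, no ligand passes 3.42 TPM, and Dkk1, Dkk4 and 4 ligands sit at 0 in both animals.

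The promoters of 4 members are shown first. Fzd7 and Wif1 were the pair of members that differed between the animals, and Wnt3a and Wnt9a are adjacent genes of which 1 had no read and the other led the ligands. Each sequence is from RefSeq on build GRCm38.p6, reads 5′ to 3′ on the gene's strand and stops before the first annotated transcript base. Capitals mark CAGCTG, an E-box of the kind bound by muscle regulatory factors. The stretches are chr1:59481897-59482146 on the plus strand for Fzd7, chr10:121033754-121033959 on the plus strand for Wif1, chr11:59290753-59291001 on the minus strand for Wnt3a and chr11:59306680-59306927 on the plus strand for Wnt9a.
Fzd7: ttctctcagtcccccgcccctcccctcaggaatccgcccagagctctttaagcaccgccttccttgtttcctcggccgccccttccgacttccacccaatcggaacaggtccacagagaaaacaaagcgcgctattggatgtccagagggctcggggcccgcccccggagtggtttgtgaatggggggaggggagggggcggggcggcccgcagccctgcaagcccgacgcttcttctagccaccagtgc
Wif1: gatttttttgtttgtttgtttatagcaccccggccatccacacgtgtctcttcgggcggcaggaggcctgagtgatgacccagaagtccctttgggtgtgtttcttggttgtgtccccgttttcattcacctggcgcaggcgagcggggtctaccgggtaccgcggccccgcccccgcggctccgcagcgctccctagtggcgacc
Wnt3a: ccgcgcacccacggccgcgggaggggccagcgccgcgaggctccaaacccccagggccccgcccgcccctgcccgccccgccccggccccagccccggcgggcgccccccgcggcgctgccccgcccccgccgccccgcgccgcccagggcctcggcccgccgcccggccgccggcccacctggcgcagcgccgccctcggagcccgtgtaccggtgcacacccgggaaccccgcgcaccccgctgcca
Wnt9a: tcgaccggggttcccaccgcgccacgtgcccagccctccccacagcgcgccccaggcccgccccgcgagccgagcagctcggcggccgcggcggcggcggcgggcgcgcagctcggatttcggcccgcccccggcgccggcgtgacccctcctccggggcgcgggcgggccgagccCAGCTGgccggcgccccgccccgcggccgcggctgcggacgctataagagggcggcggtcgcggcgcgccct

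The neighbouring pair had the densest CpG of the 4. In the 250 bases before the RefSeq start there were 48 CpG dinucleotides for Wnt9a, 41 for Wnt3a, 21 for Wif1 and 17 for Fzd7. Across the 27 of 41 members matched in the RefSeq promoter table, which has 30 promoters for them, the median was 21.5 CpG and 67.4% G + C, beside 6 CpG and 52.4% over all 32851 promoters. This richness did not follow level, as the 12 matched members with a mean of at least 1 TPM had a median of 19 CpG and the 15 below it 23. CAGCTG, which reads the same on both strands, was found in promoters of Frzb, Fzd10 and Wnt9a and in 13.0% of all promoters. The searched bases of Fzd10 lay wholly within its annotated transcript, and those of Frzb all but 21. CTTTGAT, the core bound by TCF/LEF factors, searched on both strands, was found in promoters of Wnt11 and Wnt5b and in 3.21% of all promoters. For Wnt5b the match lay before a RefSeq start inside the annotated gene, and the promoter at the gene's 5′ end had none. No promoter of a member held both motifs. A match describes the letters and not a bound site.

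Ligands were few and low. Only 4 of the 19 reached 1 TPM in both animals: Wnt9a, Wnt4, Wnt11 and Wnt5a. These gene levels take in all annotated forms, also those not annotated as coding. Wnt9a, a ligand known from joint and liver development (chromosome 11, 59306928-59333552, mm10), stood at 2.91 TPM in replicate 1 and 3.42 TPM in replicate 2 (3.17 ± 0.361, SD, n = 2). Wnt4, known from kidney and reproductive tract development and from muscle differentiation (chromosome 4, 137277489-137299726), stood at 2.81 and 2.31 TPM. Wnt9a was above Wnt4 in each animal, by little in replicate 1. Wnt11 (chromosome 7, 98835112-98855195) and Wnt5a (chromosome 14, 28504750-28527448) are the textbook ligands of signalling without beta-catenin. Wnt11 was at 2.03 and 2.18 TPM, and Wnt5a at 1.5 and 2.05 TPM. The ranges of Wnt11 and Wnt5a overlapped, and Wnt4 was above Wnt11 in each animal.

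Ligand RNA came to 11.27 and 11.84 TPM in all. Wnt9a carried 25.8% and 28.9% of it, Wnt4 24.9% and 19.5%, Wnt11 18.0% and 18.4%, and Wnt5a 13.3% and 17.3%. Wnt16 came next at 0.61 and 0.99 TPM, from 30 and 49 expected counts. Of the other ligands, Wnt10b had 0.47 and 0.28 TPM and Wnt5b 0.17 and 0.26 TPM. Wnt6, Wnt2, Wnt2b and Wnt10a were lower in both animals than Wnt10b, between 0.03 and 0.27 TPM. Wnt3, Wnt1, Wnt7b and Wnt9b had between 1 and 4 expected counts in 1 animal and 0 in the other, which does not tell the animals apart.

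Wnt3a, Wnt7a, Wnt8a and Wnt8b had no read in either library. A count of 0 allows up to 3 counts, which is 0.0357 TPM for Wnt3a, 0.0823 TPM for Wnt7a, 0.0577 TPM for Wnt8a and 0.0475 TPM for Wnt8b in replicate 1. This limit covers counting error only. Wnt7a is known as a ligand that drives symmetric division of muscle stem cells through Fzd7, and Wnt3a is the ligand most used to switch on beta-catenin in culture. The deposited interval of Wnt7a ran from 0.012 to 0.764 TPM in replicate 1 in spite of the 0 counts, so an interval alone does not show that RNA was present.

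Wnt genes often lie side by side, and 4 pairs of members were under 100 kb apart. Wnt3a (chromosome 11, 59248033-59290752, minus strand) and Wnt9a start 16175 bases apart and are transcribed away from each other. It combined a ligand with no read and the ligand with the highest mean. The other pairs were low on both sides: Wnt6 and Wnt10a, 6193 bases apart on chromosome 1, Wnt9b and Wnt3, 24328 bases apart on chromosome 11, and Wnt10b and Wnt1, 11706 bases apart on chromosome 15.

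**Figure D2:**
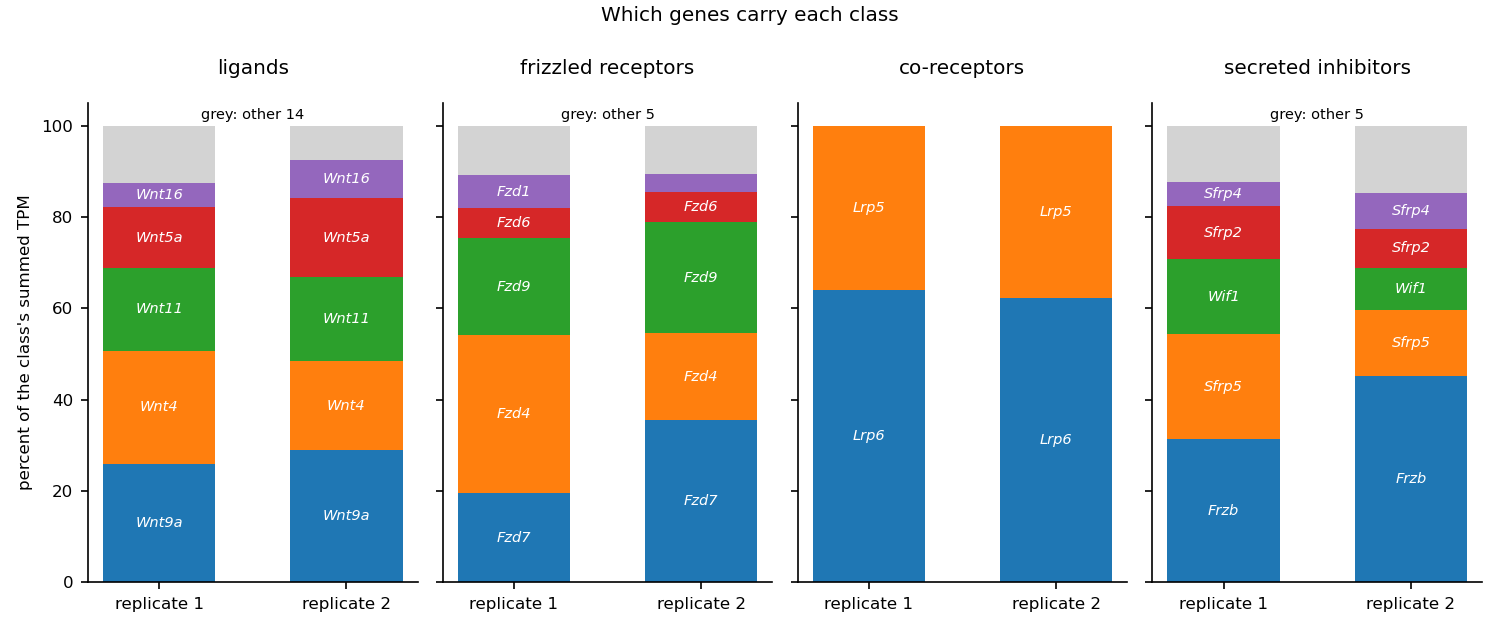
Stacked bars give the percent of each class's summed TPM carried by its leading genes in replicates 1 and 2, with the remaining members in grey. Fzd4 leads the frizzled receptors in replicate 1 at 34.6% and Fzd7 in replicate 2 at 35.4%, while Wnt9a leads the ligands and Lrp6 the co-receptors in both.

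All 10 frizzled receptors, the membrane receptors that bind Wnts, had reads in both animals, and 5 reached 1 TPM in both. Their RNA summed to 26.62 TPM in replicate 1 and 31.91 TPM in replicate 2, which was 2.36 and 2.70 times the ligand sum. Fzd7 (chromosome 1, 59482424-59486955), a receptor known from muscle stem cells, stood at 5.19 TPM in replicate 1 and 11.31 TPM in replicate 2, from 727 and 1588 expected counts. It was thus 2.16-fold higher in replicate 2 (log2 ratio 1.11), with deposited credibility intervals of 4.73 to 5.46 and 10.5 to 11.6 TPM. Fzd4 (chromosome 7, 89404355-89413134), known as the receptor of norrin in blood vessels, went the other way with 9.21 and 6.11 TPM, from 1926 and 1281 expected counts. Its intervals, 8.62 to 9.43 and 5.65 to 6.31 TPM, did not overlap, but the log2 ratio of -0.58 was under the 2-fold criterion.

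The leading frizzled gene therefore was not the same in each animal. Fzd4 made up 34.6% of frizzled RNA in replicate 1 and 19.1% in replicate 2, and Fzd7 19.5% and 35.4%. Both shifts were also present in a separate quantification that the authors deposited as second transcript tables, where Fzd4 made up 34.0% and 18.2% and Fzd7 19.3% and 34.3%. The means of Fzd7 and Fzd4, 8.25 ± 4.33 and 7.66 ± 2.19 TPM (SD, n = 2), were closer than the spread of either. Markers of endothelial cells, in which Fzd4 is known, summed to 64.24 and 68.09 TPM, with 5 of 8 genes higher and 3 lower in replicate 2. Markers of satellite cells, the stem cells of muscle, summed to 50.77 and 31.95 TPM, a gap that came mostly from Sdc4 at 39.1 and 20.38 TPM. Of the 5 with a mean of at least 0.5 TPM, 3 were higher in replicate 2, namely Pax7 (0.61 and 0.70 TPM), Myf5 (0.54 and 0.92 TPM) and Cdh15 (6.16 and 6.32 TPM). Sdc4 and Chodl (4.12 and 3.42 TPM) were lower, Calcr was at 0.24 and 0.21 TPM, and the part of these cells in the Fzd7 difference was not tested.

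Fzd9 (chromosome 5, 135248938-135251230) was also above 5 TPM in both animals, with 5.67 TPM in replicate 1 and 7.75 TPM in replicate 2. Its intervals did not overlap, and its log2 ratio of 0.44 was below the criterion. Fzd6, known from planar polarity, stood at 1.74 and 2.11 TPM, and Fzd1 at 1.93 and 1.25 TPM. Fzd1 was the lower of these in replicate 2 and the higher in replicate 1, so the order of the pair was not fixed. Fzd8 and Fzd2 lay between 0.88 and 1.01 TPM in both animals and Fzd5 between 0.48 and 0.61 TPM. Fzd3, a polarity receptor of growing axons, had 0.22 and 0.20 TPM, although its expected counts were 89 and 29, because the effective length assigned to it differed between the libraries, 12635 and 4560.59 bases.

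Fzd10 lay just outside the count filter described below, with a mean of 48.5 expected counts. It had 0.29 and 0.68 TPM in replicates 1 and 2, with a log2 ratio of 1.00. Its intervals, 0.195 to 0.404 and 0.525 to 0.843 TPM, did not overlap. Reads could in principle be shared among the frizzled genes, which are close paralogs. By exact 31-base words in the annotated transcripts, 0.777% of Fzd7 was shared with another gene, mostly Fzd2 and Fzd1, and 1.61% of Fzd1 and 1.90% of Fzd2.

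The co-receptors were the most abundant class per gene. Lrp6 (chromosome 6, 134446476-134566965) stood at 16.49 TPM in replicate 1 and 14.62 TPM in replicate 2 (15.6 ± 1.32, SD, n = 2) and was above every other member in both animals. Lrp5 (chromosome 19, 3584828-3686564), known for its role in bone mass, stood at 9.31 and 8.86 TPM. The pair summed to 25.8 and 23.48 TPM, and Lrp6 carried 63.9% and 62.3% of that sum. The co-receptor sum was 0.969 and 0.736 times the frizzled sum.

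Secreted inhibitors summed to 22.11 TPM in replicate 1 and 17.69 TPM in replicate 2. The inhibitor sum was 1.96 and 1.49 times the ligand sum, and 2.02 and 1.62 times it in the second transcript tables, so inhibitor RNA exceeded ligand RNA in both animals. Of the 10 genes, 6 reached 1 TPM in both: Frzb, Sfrp5, Wif1, Sfrp2, Sfrp4 and Dkk3. Frzb, the frizzled-related protein first found in cartilage (chromosome 2, 80411970-80447625), led with 6.94 and 8.01 TPM, or 31.4% and 45.3% of the class.

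Wif1, which binds Wnts through its WIF domain (chromosome 10, 121033960-121100650), stood at 3.61 TPM in replicate 1 and 1.64 TPM in replicate 2, from 209 and 99 expected counts. It was 2.13-fold higher in replicate 1 (log2 ratio -1.09, replicate 2 over replicate 1), and its intervals, 3.08 to 4.14 and 1.29 to 2.04 TPM, did not overlap. Sfrp5 (chromosome 19, 42197971-42202252), a frizzled-related protein also secreted by fat tissue, stood at 5.08 and 2.54 TPM, from 289 and 145 expected counts. Its intervals did not overlap either, and its log2 ratio of -0.97 fell just short of the criterion. Sfrp2, known from muscle development and fibroblasts (chromosome 3, 83766321-83774316), stood at 2.59 and 1.49 TPM with a log2 ratio of -0.76. These 3 inhibitors were all lower in replicate 2, and also in the second transcript tables. Scaling to spike-ins, to protein-coding genes or to the median gene shifts all genes nearly alike. Those shifts were too small to change the direction of these 3.

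Markers of fibroblasts, tendon and nerve were lower in replicate 2 as well. All 9 Schwann cell markers were lower, 7 of them past the criteria, as were all 9 fibroblast markers (3 past the criteria) and all 8 tendon markers (3 past the criteria), which summed to 157.26 and 105.43 TPM. Perineurial markers summed to 8.23 and 4.4 TPM with Krt23 at 0, and macrophage markers to 50.24 and 30.7 TPM, all 8 of them lower. Cartilage and bone markers summed to 4.92 and 2.63 TPM with Ibsp at 0, a gap that came mostly from Col2a1 at 2.63 and 0.75 TPM. Of the 3 with a mean of at least 0.5 TPM, Col2a1 and Sox9 (0.94 and 0.88 TPM) were lower and Dmp1 (0.82 and 0.84 TPM) was higher. Adipocyte markers mostly went the other way: all 7 with a mean of at least 0.5 TPM were higher in replicate 2, while Sfrp5 was lower. Lep, the adipocyte marker below that level, was lower in replicate 2, at 0.45 and 0.16 TPM. Smooth muscle and pericyte markers summed to 150.27 and 117.58 TPM, with 3 genes higher and 5 lower. The part of these cell types in the inhibitor differences was not tested.

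Not every inhibitor moved this way. Sfrp4 stood at 1.18 and 1.40 TPM and Frzb, as given above, was also higher in replicate 2. Dkk3, a divergent Dickkopf protein that does not act on Lrp6 like its relatives, stood at 1.11 and 1.03 TPM, and Dkk2 at 0.97 and 1.06 TPM. The intervals of Sfrp4, Dkk3 and Dkk2 overlapped, and the direction flipped for Sfrp4 and Dkk2 in the second transcript tables and for Dkk3 under spike-in scaling. Sfrp1 had 0.63 and 0.52 TPM. Dkk1, the best-known Dickkopf inhibitor, and Dkk4 had no read in either gene table, which allows up to 0.0408 TPM and 0.0781 TPM in replicate 1. The second transcript tables gave values within those limits, 0.019 and 0.019 TPM for Dkk1 and 0.040 and 0.037 TPM for Dkk4.

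Among the 18 members with a mean of at least 1 TPM, 13 of the 17 neighbours in the order of means had overlapping ranges. The order from the top was Lrp6, Lrp5, Fzd7, Fzd4, Frzb, Fzd9, Sfrp5, Wnt9a, Wif1, Wnt4, Wnt11, Sfrp2, Fzd6, Wnt5a, Fzd1, Sfrp4, Dkk3 and Dkk2. Breaks, where the animals' values of neighbours did not overlap, came after Lrp6, after Fzd9, after Wnt4 and after Sfrp4. Only neighbours were compared in this way, and genes further apart within a step can still be ordered alike in both animals, as Wnt9a and Wnt4 were.

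To describe how far the animals differed, 3 criteria were set: a mean of at least 50 expected counts, a ratio of at least 2-fold in TPM + 0.1, and credibility intervals that did not overlap. Genes that met all 3 are called differing. Of the 23 members with enough counts, 2 differed, or 8.70% of them, beside 2.21% of all 11632 genes with enough counts. With so few genes, 2 of 23 does not set the members apart from others. Fzd7 was the 1 member higher in replicate 2, a direction taken by 0.447% of all genes, and Wif1 the 1 lower, a direction taken by 1.76%. Fzd7 fell just short of 2-fold in the second transcript tables (log2 0.99), as did Wif1 with spike-in scaling (log2 -0.94), and neither passed with 1 TPM added in place of 0.1. The other 18 members had too few counts for the comparison. Intervals alone did not overlap for 6 of the 23, namely Fzd7, Fzd4, Fzd9, Fzd1, Sfrp5 and Wif1, beside 18.9% of all genes with enough counts.

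The members as a whole were balanced between the animals. Of the 23 with a mean of at least 0.5 TPM, a set that holds Wnt16 in place of Fzd3, 12 were higher and 11 lower in replicate 2. Their median log2 ratio was 0.10, beside 0.001 for all 13033 genes at that level, and the sign of this median depends on the quantification. Within 1.5-fold were 17 of the 23, beside 86.2% of all genes at that level. Frizzled RNA as a sum was 1.2-fold higher in replicate 2 and inhibitor RNA 1.25-fold higher in replicate 1. The ligand sums differed little, and in the second transcript tables, at 17.0 and 16.0 TPM, replicate 1 was the higher.

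**Figure D3:**
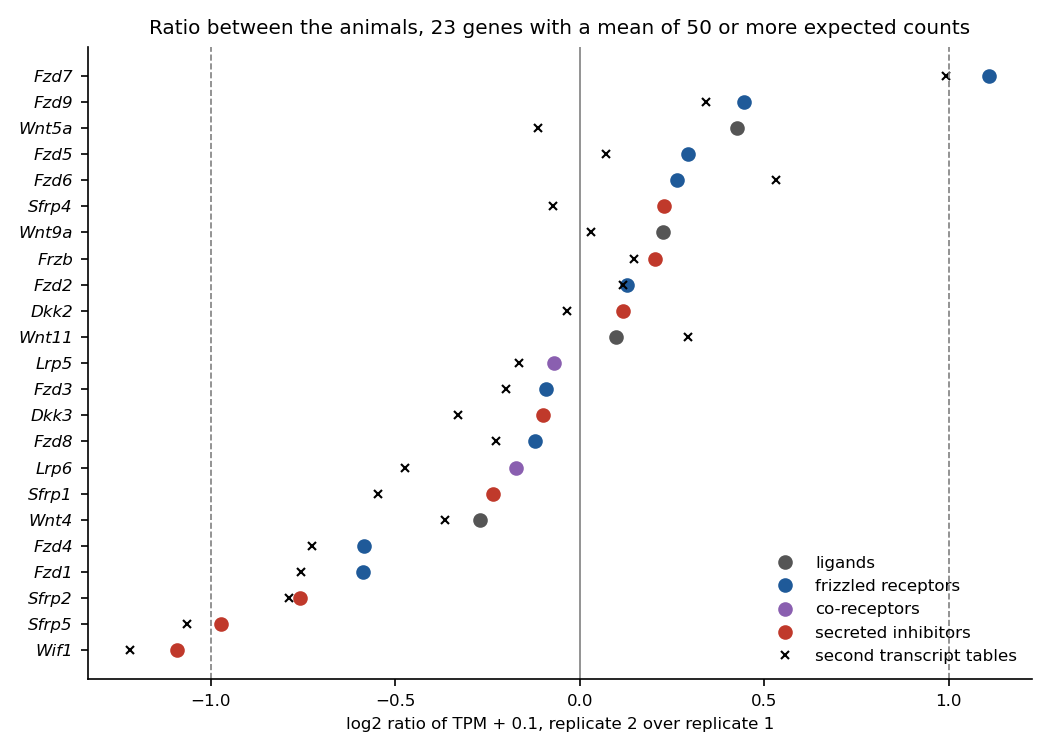
Log2 ratio of TPM + 0.1, replicate 2 over replicate 1, for the 23 genes with a mean of at least 50 expected counts, coloured by class, with crosses for the second transcript tables and dashed lines at 2-fold. Fzd7 at 1.11 and Wif1 at -1.09 lie past the lines, Sfrp5 at -0.97 lies just inside, and Wnt5a, Sfrp4 and Dkk2 change sign in the second tables.

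The rest of the pathway was represented by 64 other genes in 8 lists, chosen by role. Of these, 31 reached 1 TPM in both animals, beside 45.6% of all nuclear protein-coding genes. Enough counts were present for 39, and 0 differed by the criteria, beside 2.21% of all 11632 genes with enough counts. At so low a share, 0 of 39 does not set these genes apart from others. The 39 with a mean of at least 0.5 TPM had a median log2 ratio of 0.025.

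Genes for making and releasing Wnts were present at modest levels. Wls, the carrier that takes Wnts to the cell surface, stood at 8.31 and 7.06 TPM. Porcn, the enzyme that adds their lipid, stood at 1.51 and 1.99 TPM, the larger ratio of the 2 at log2 0.38. Notum, which removes that lipid, had 0 and 1 expected count, and Trabd2b, a protease that cleaves Wnts, had 0.55 and 0.40 TPM.

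Among the R-spondins and their receptors, 2 of 9 genes reached 1 TPM. Lgr4, an R-spondin receptor, stood at 9.33 and 10.1 TPM, near Lrp5. Znrf3, the ligase that removes frizzled receptors from the membrane, stood at 1.91 and 1.75 TPM. The R-spondins themselves, which protect frizzled receptors by removing Znrf3, were low, with Rspo3 at 0.34 and 0.39 TPM.

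Alternative receptors were led by Ryk, at 18.66 and 16.48 TPM, above Lrp6 in each animal. Ror1 stood at 0.96 and 0.69 TPM, Ptk7 at 0.41 and 0.32 TPM and Ror2 at 0.24 and 0.13 TPM, so 1 of these 4 genes reached 1 TPM in both. Of 13 other extracellular regulators, 4 did. Kremen1, a partner of Dickkopf proteins, stood at 13.45 and 16.04 TPM, and the glypicans Gpc4 and Gpc3 at 12.88 and 11.58 TPM and at 6.36 and 3.73 TPM. Gpc3 had the larger ratio, log2 -0.75, lower in replicate 2 like Sfrp2. Lrp4, the agrin receptor of the neuromuscular junction, stood at 2.71 and 2.93 TPM, and Sost and Dkkl1 had no read.

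As a sum, the cytoplasmic transducers were more abundant than the ligands, the frizzled receptors or the co-receptors. Several single transducers lay below Lrp6, such as Dvl2 at 1.06 and 1.32 TPM. Of 12 cytoplasmic transducers, 11 reached 1 TPM in both animals, and they summed to 266.48 and 277.08 TPM. Ctnnb1, which encodes beta-catenin, stood at 81.6 and 78.42 TPM, Csnk1a1, a kinase of the destruction complex, at 68.45 and 72.36 TPM, and the frizzled adaptor Dvl1 at 37.15 and 42.1 TPM. The transducers varied little, and the largest ratio among those at 1 TPM or more was log2 0.29, for Dvl2. Ctnnb1 and Csnk1a1 also act outside Wnt signalling, in cell adhesion and as a general kinase.

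TCF factors and their coactivators had 5 of 8 genes at 1 TPM in both animals. Bcl9l led at 9.47 and 10.42 TPM, followed by Pygo2 at 3.31 and 3.41 TPM and Tcf7l2 at 2.83 and 2.69 TPM. Tcf7l1 was close to Tcf7l2, at 2.20 and 2.29 TPM. In the second transcript tables Tcf7l1 was at 6.16 and 3.77 TPM and Tcf7l2 at 4.88 and 4.73 TPM. Which TCF/LEF gene leads thus depends on the quantification. Lef1 and Tcf7 were at or below 0.31 TPM. Genes that are commonly induced by beta-catenin as feedback were mostly low: 2 of the 11 that are not members reached 1 TPM in both, Axin2 and Znrf3. The list also holds the members Wif1, which reached 1 TPM in both and was lower in replicate 2 past the criteria, and Dkk1, which had no read in the gene tables. Axin2, the usual readout of the pathway, stood at 1.74 and 2.84 TPM, higher in replicate 2 at a log2 ratio of 0.68 that did not meet the criteria. Nkd2 went the other way, at 0.90 and 0.43 TPM with a log2 ratio of -0.92, which did not meet the criteria either. It rested on 67 and 40 expected counts. In the second transcript tables both ratios were smaller, log2 0.41 for Axin2 and -0.23 for Nkd2. Apcdd1 was at 0.83 and 0.96 TPM, Nkd1 at 0.73 and 0.74 TPM, and Sp5 had no read.

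Of 10 planar polarity genes, 5 reached 1 TPM in both animals. Scrib stood at 5.88 and 7.25 TPM, Daam1 at 4.25 and 3.92 TPM and Celsr2 at 2.2 and 2.6 TPM. Vangl1 had the largest ratio, with 2.43 and 0.91 TPM and log2 -1.33, but its intervals overlapped and its expected counts were 125 and 95.

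**Figure D4:**
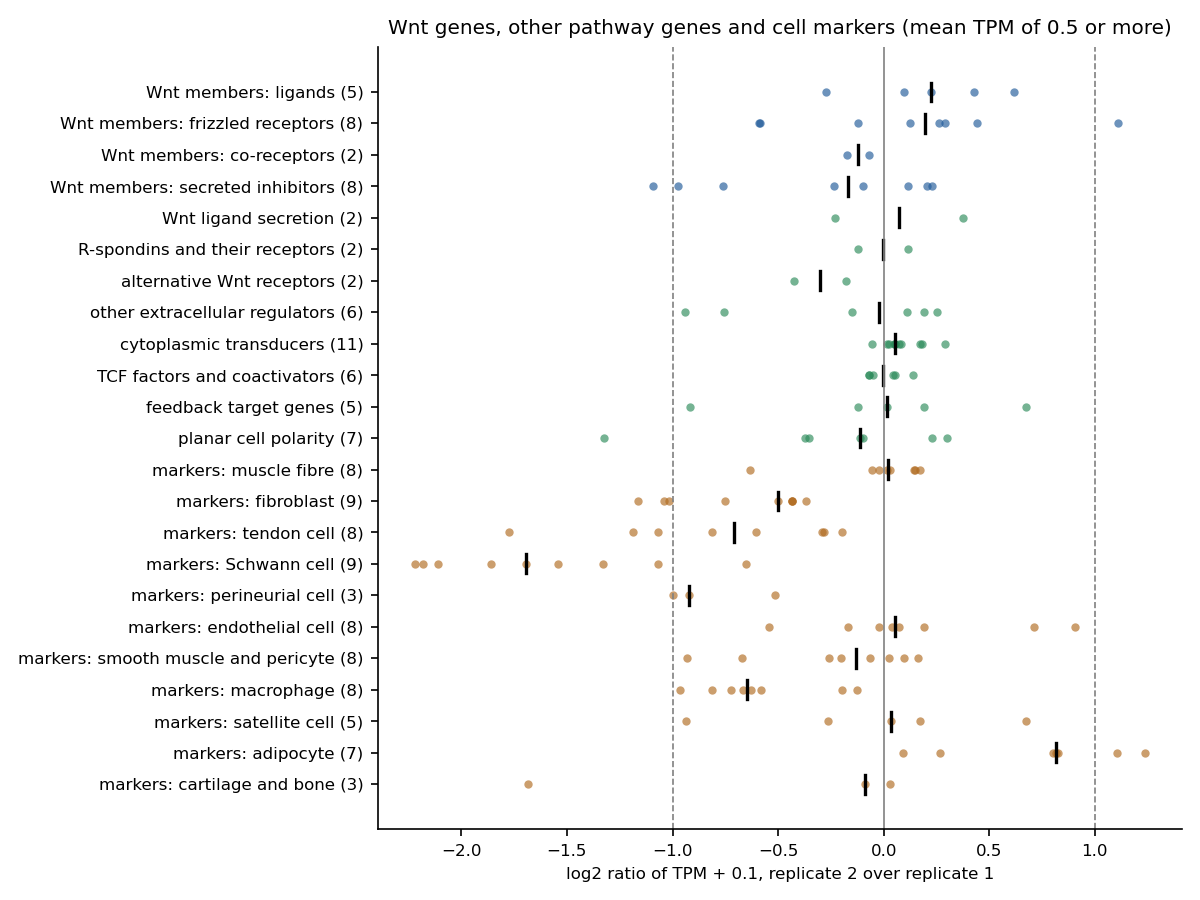
Each point is a gene with a mean of at least 0.5 TPM, placed by its log2 ratio of TPM + 0.1, replicate 2 over replicate 1, with a bar at each list's median and the number of genes in parentheses; blue marks the Wnt genes by class, green the other pathway lists and brown the cell markers. The cytoplasmic transducers lie close to 0 with 10 of 11 above it, whereas all 9 Schwann cell and all 9 fibroblast markers lie below 0. The side on which the transducers lie depends on the quantification. In the second transcript tables most of them are below 0, with Apc at -0.353 and Btrc at -0.368, while Ctnnb1 is at 0.153.

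Total RNA also contains unspliced and non-coding transcripts, and the transcript tables show how much of each member is annotated as coding. Of the 18 members with a mean of at least 1 TPM, 8 had a single annotated transcript and 10 had more. In 4 of the 10, Lrp5, Wnt9a, Sfrp2 and Sfrp4, 1 form carried at least 80% of the gene's TPM in both animals. Fzd7, Fzd4 and Fzd9 have a single coding transcript, so their levels hold no such split. Lrp6 was mostly coding, at 85.9% and 84.4% of its TPM in replicates 1 and 2, and its full-length form of 9368 bases carried 75.0% ± 0.806. In the second transcript tables the coding share of Lrp6 was lower, at 74.2% and 78.5%.

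Frzb and Wif1 carried a large non-coding share. For Frzb the coding form took 61.4% and 60.9% of TPM, and an 830-base processed transcript took the rest from 61.92 of 472 and 72.39 of 544 expected counts. A short form weighs more in TPM than in counts, so the gene's level rests in part on a few reads. The coding form of Frzb alone stood at 4.26 and 4.88 TPM. That was below Sfrp5 in replicate 1 (5.08 TPM) and above it in replicate 2 (2.54 TPM). For Wif1 the coding form took 55.1% and 63.4%, and a retained-intron form 44.9% and 36.6%. Both forms were lower in replicate 2, the coding form at 1.99 and 1.04 TPM and the retained-intron form at 1.62 and 0.60 TPM. In the second transcript tables the coding form of Wif1 took 70.9% and 68.0%. Which animal had the larger coding share thus depends on the quantification.

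The forms of Wnt11, Wnt5a and Fzd6 were not stable. The coding share of Wnt11 was 69.0% in replicate 1 and 19.7% in replicate 2, but 66.1% and 41.4% in the second transcript tables. Wnt5a went from 86.6% to 49.3%, and in the second tables from 68.5% to 58.6%. Fzd6 was at 49.4% and 46.2%, and in the second tables at 49.9% and 34.9%. In the first tables the coding forms of Wnt11 in replicate 2 stood at 0.20, 0.13 and 0.10 TPM. Those of Fzd6 in replicate 1 stood at 0.86 and 0 TPM. In these libraries both genes thus reached 1 TPM only with forms not annotated as coding. The first and second tables named the same leading form for 7 of the 10 genes. Exons of Wnt11, Wnt5a, Fzd6, Sfrp2, Fzd5 and Wnt7b overlap a gene on the opposite strand, and each of these 6 partners had at most 0.02 TPM.

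**Figure D5:**
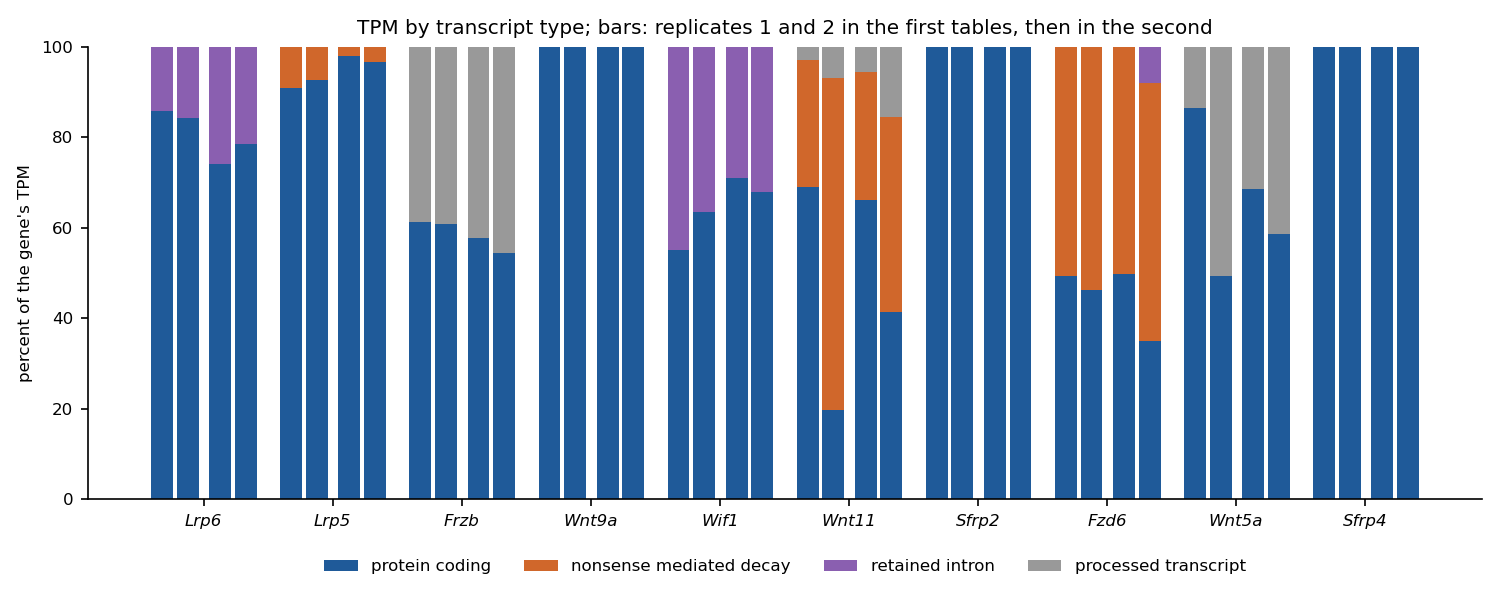
Percent of each gene's TPM by annotated transcript type, for the 10 genes with more than 1 annotated form, as 4 bars per gene, replicates 1 and 2 in the first transcript tables and then in the second. Wnt9a, Sfrp2 and Sfrp4 are wholly coding, 38.6% and 39.1% of Frzb in the first tables is a processed transcript, and the split of Wnt11 changes with both animal and table.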

How the data were processed

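Each library, 1 per animal, was made from 300 ng of total RNA with ERCC spike-ins. The authors deposited expected counts, TPM, FPKM and bounds of a credibility interval of TPM per gene on mm10 with GENCODE release M21, per the file headers and notes. The interval bounds are handled as a score, since the deposited files do not state their level. The authors also deposited 2 transcript tables per library: the first from the same alignments, with the percent of each gene carried by each form, and the second straight from reads. Names of the aligner and quantifiers, and the use of strand in counting, were not given in the sources used for this text.

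The 41 members were found by symbol, and levels are the deposited TPM. The summed TPM covers all listed features, so non-coding RNA lowers every value. Depth was 36952277 and 38754338 expected counts, and 100-base reads were counted. The libraries differed by more than sampling noise (chi-square per degree of freedom 35.1 over 14978 genes). A count of 0 was read as up to 3 counts. Log2 ratios are replicate 2 over replicate 1 of TPM + 0.1, which understates ratios of low genes. With 1 group of 2 animals no p-value was computed. Scaling to spike-ins, 0.614% and 0.527% of the counts, started from FPKM and moved the median gene to a log2 ratio of 0.168 from 0.012.

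All members were named, those with a mean of at least 1 TPM with both values. Of each pathway list the 3 genes with the highest mean and the gene with the largest ratio at 1 TPM or more were named. Some genes of these lists at or near 0, and Lrp4, Ror2, Lef1, Tcf7, Tcf7l1, Nkd1 and Nkd2, were named after their values were seen. The members and lists were chosen with earlier results of these data known. All 66 pathway symbols and all 83 marker symbols were found; Dkk1 and Wif1 among the former are members. Alternatives changed the detection level, pseudocount, count filter, fold, interval criterion, scaling and table, and left out each replicate. The criteria for differing genes were run on simulated data with counting error only. The changes put in were larger than 2-fold, in genes with at least 200 expected counts. That run does not show how often the criteria err between real animals. Python 3.11.15, pandas 2.3.3, numpy 2.4.6 and matplotlib 3.10.9 were used. Promoters cover the 250 bases before each RefSeq start, and 14 members had no entry.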

Additional observations from a re-analysis of the deposited data

How the results depend on the processing

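The number of members at 1 TPM or more in both animals, 17, was 10 at 2 TPM, and 18 in either animal alone. The mean class sums moved with the quantification and the denominator: 16.49 TPM (ligands), 40.03 (frizzled receptors), 35.3 (co-receptors) and 30.13 (inhibitors) in the second transcript tables, and 28.03, 70.87, 59.86 and 48.42 TPM when rescaled over nuclear protein-coding genes, which leaves the non-coding RNA out of the denominator. With each replicate left out, the sums ranged from 11.27 to 11.84, 26.62 to 31.91, 23.48 to 25.8 and 17.69 to 22.11 TPM. The count of 2 differing members became 0 with a pseudocount of 1, 1 with at least 200 expected counts (Fzd7), 4 at 1.5-fold (Fzd7 higher, Fzd1, Sfrp5 and Wif1 lower) and 1 with spike-in scaling (Fzd7), an alternative chosen after seeing the data. It was 3 without the count filter (Fzd10 added) and 3 when rescaled over nuclear protein-coding genes (Sfrp5 added). The second tables, used without the interval criterion, gave 2, Sfrp5 and Wif1. Of the other pathway genes, 0 differed, and 1 did without the count filter (Sostdc1), without the interval criterion, whether in the gene tables or in the second tables (Vangl1 in both), and at 1.5-fold (Gpc3). The members' median log2 ratio of 0.098 reversed to -0.093 without a filter on level and to -0.113 in the second tables, where the median over all genes with 50 or more counts was itself -0.108, and was 0.249 with spike-in scaling. The number of genes with a leading form was 4 in both sets of tables. Fzd7 had a log2 ratio of 0.99 and Wif1 of -0.80 with a pseudocount of 1. The causes of these changes were not tested. No paired analysis was possible because there is a single group. With 2 animals, the SD of any level is itself poorly known, and genes under 50 expected counts were not compared.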
